A study of Mus musculus with 18 samples.

Results

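NIH3T3 cells harvested 20 h after the end of a dexamethasone pulse were compared with cells harvested at 16 h, 4 h earlier. NIH3T3 is a line of mouse embryo fibroblasts. All cultures had received 100 nM dexamethasone, a synthetic glucocorticoid used to set the clocks of a culture to a common phase, for 2 h, and 0 h is the change to normal medium that ended the pulse. The comparison takes the 2 libraries labelled 20 h and the 2 labelled 16 h, 4 of the 18 libraries of a course sampled every 4 h from 0 h to 32 h, and 12393 of the 21937 genes in the table were tested, those averaging 10 or more normalized reads (reads in the gene divided by 1 factor per library). No library came from untreated cells, so the pulse is common to both times. The labels do not state that the replicates were separate cultures, and the p-values measure the spread between libraries, which may be technical.

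The circadian clock of mammalian cells is a feedback loop of transcription. CLOCK and BMAL1 (the product of Arntl) bind E-boxes and switch on the Period and Cryptochrome genes, whose proteins then hold back CLOCK and BMAL1, and the REV-ERB genes, whose proteins repress Arntl through ROR elements. The PAR bZIP factors DBP, TEF and HLF are a further output and bind D-boxes, a site that is also occupied by the repressor NFIL3. Fibroblast lines carry this loop, and a glucocorticoid pulse is a common way to set it.

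The promoters of the Per1, Tef, Per3 and Cry2 genes are shown because these genes rose at 20 h and their windows hold letters of the clock's own binding sites. The sequences are the 250 bases before an annotated start, in RefSeq's mouse table of build GRCm38.p6, written in the direction of transcription. Capitals mark CACGTG (an E-box) in Per1 and Tef, TTATGTAA (a D-box) in Per3 and AACGTG, the other strand of CACGTT, in Cry2. The windows are chr11:69098699-69098948 (plus strand) for Per1, chr15:81802423-81802672 and chr15:81811164-81811413 (both plus) for 2 starts of Tef, chr4:151044666-151044915 (minus) for Per3 and chr2:92434070-92434319 (minus) for Cry2. The CACGTT letters were added to the search, and Cry2 to the sequences shown, after the promoters had been seen.
Per1 CACGTG window: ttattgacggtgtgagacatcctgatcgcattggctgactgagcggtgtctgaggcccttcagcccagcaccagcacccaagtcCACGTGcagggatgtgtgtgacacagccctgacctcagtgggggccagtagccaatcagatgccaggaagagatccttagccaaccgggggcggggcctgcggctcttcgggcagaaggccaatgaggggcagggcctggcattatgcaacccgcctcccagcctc
Tef CACGTG window 1: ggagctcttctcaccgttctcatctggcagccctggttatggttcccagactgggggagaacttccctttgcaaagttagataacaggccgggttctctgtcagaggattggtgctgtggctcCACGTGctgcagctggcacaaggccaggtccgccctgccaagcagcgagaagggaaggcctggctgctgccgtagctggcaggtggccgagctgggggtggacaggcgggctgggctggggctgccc
Tef CACGTG window 2: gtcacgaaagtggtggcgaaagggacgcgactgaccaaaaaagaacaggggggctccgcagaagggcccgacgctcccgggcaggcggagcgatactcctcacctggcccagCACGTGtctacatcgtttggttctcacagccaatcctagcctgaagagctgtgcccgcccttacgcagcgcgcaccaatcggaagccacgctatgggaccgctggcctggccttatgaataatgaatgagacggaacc
Per3 D-box window: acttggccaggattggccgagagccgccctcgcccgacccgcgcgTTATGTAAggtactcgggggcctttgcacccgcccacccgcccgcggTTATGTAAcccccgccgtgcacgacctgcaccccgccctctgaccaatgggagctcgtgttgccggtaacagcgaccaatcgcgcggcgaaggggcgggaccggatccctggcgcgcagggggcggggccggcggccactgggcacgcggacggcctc
Cry2 CACGTT window: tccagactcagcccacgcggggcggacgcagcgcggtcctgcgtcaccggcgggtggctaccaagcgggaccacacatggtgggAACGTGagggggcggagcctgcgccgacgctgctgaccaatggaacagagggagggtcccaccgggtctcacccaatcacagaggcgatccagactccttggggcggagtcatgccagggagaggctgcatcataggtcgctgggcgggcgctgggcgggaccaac
The first base of CACGTG lay 166 bases before the start in Per1, and 127 and 138 bases before the starts in Tef. Per3 held TTATGTAA 205 and 158 bases before its start, and AACGTG lay 166 bases before that of Cry2. On either strand, and counting 50 bases after the start as well, CACGTG is in 7.15% of the 32851 promoter windows of the table, CACGTT in 4.68%, TTATGTAA or TTACGTAA in 1.06%, and TAGGTCA or TGGGTCA (letters of a ROR element) in 6.45%. Counted by gene, of the 9743 tested genes that the table matched (of 12393), 11.8% held CACGTG in at least 1 window, 6.32% CACGTT, 0.821% TTATGTAA or TTACGTAA and 6.25% TAGGTCA or TGGGTCA. The unmatched genes are too many for these shares to serve as a check. The capitals of these windows do not overlap one another. The table matched 6 of the 7 genes that rose (all but Per2), and the windows of Dbp and Nr1d2 and a further one of Per1 held none of these letters. Of the 6 matched genes, 2 held CACGTG (33.3%). In a fit with the replicate number as a block, 3 of 21 matched higher genes (14.3%) and 3 of 9 matched lower genes (33.3%) held it. Clock list genes that did not pass held such letters too, so the letters are not particular to the genes that rose. Those with CACGTG were Gm129, Bhlhe41, Cry1 and Sirt1. Nr1d1, Cry1, Wdr5 and Ddb1 held CACGTT on either strand, and Timeless held TTATGTAA. A match of letters describes the window and does not show that a factor binds there.

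Of 12393 genes, 7 were higher at 20 h and 0 lower (limma, adjusted p under 0.05; 0.0565% of the genes tested). This main fit did not use the replicate numbers as pairs, although same-numbered libraries deviated together in 36 of 36 pairs of times. Genes that did not pass in it may pass with the replicate number as a block. The 7 were Per1, Per2, Per3, Cry2, Nr1d2, Tef and Dbp, and all of them belong to the 44 clock genes listed, of which 40 were tested. At an unadjusted p under 0.05 there were 374 genes (3.02%), 205 higher (1.65%) and 169 lower (1.36%), and edgeR called 7, 6 of them shared. Of all tested genes, 14.9% had both 20 h libraries above both 16 h libraries and 14.4% had both below, and the median log2 difference was -0.00. The number passing was 42 with the replicate number as a block, 29 higher (0.234%) and 13 lower (0.105%), 0.339% in all, and 16 with DESeq2, and both sets included all 7. It was 4 without replicate 2 of 20 h and 4 without replicate 2 of 16 h. All 7 genes had a positive log2 difference within each replicate. It was 1.62 within replicate 1 and 2.19 within replicate 2 for Per3, 1.54 and 1.99 for Per2, 1.22 and 1.64 for Tef, 1.12 and 1.22 for Nr1d2, 2.91 and 3.63 for Dbp, 0.57 and 1.05 for Cry2, and 0.52 and 0.61 for Per1, the larger value being that of replicate 2 each time.

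**Figure D1:**
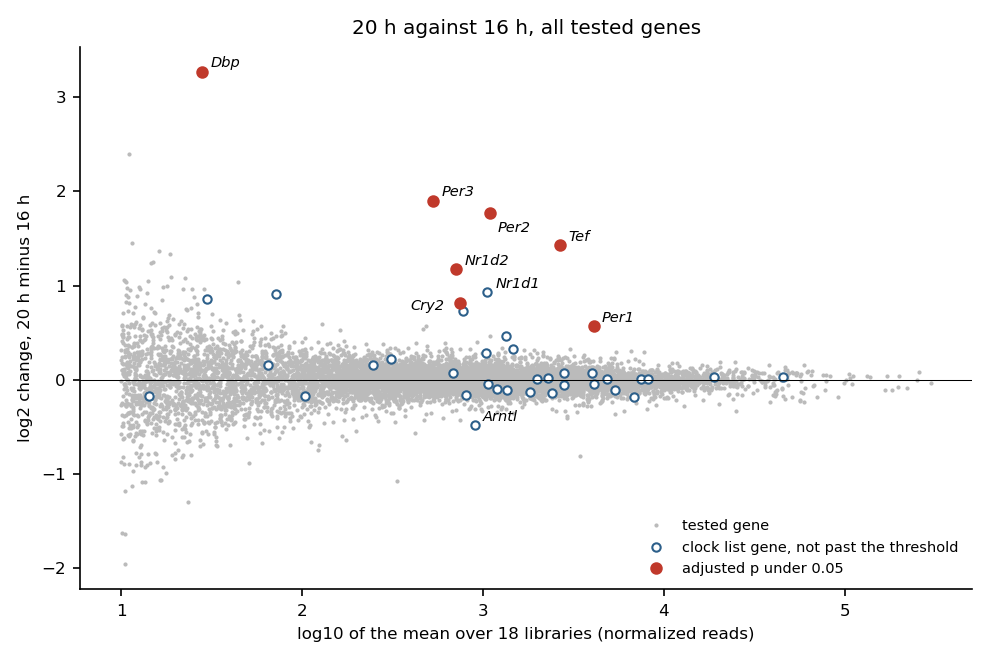
Log2 difference of 20 h minus 16 h (vertical) against the log10 mean over the 18 libraries (horizontal) for the 12393 tested genes. Red points are the 7 genes with an adjusted p under 0.05, all above 0, and open blue points the clock list genes that did not pass.

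In all 3 Period genes, whose proteins are the repressing partners of the Cryptochromes, both 20 h libraries lay above both 16 h libraries. Of all tested genes, 14.9% were placed that way. Per3 had 667 and 771.5 normalized reads at 20 h, against 217 and 168.3 at 16 h (replicates 1 and 2). Both 20 h libraries were far above both 16 h libraries, and the groups did not overlap. The fitted rise was 3.74-fold (95% interval 2.96 to 4.73; log2 1.90 ± 0.16 SE; limma adjusted p = 5.29e-05), on the log2(value + 1) scale used for every fold here. Per2, another Period gene, had 609.8 and 663.6 normalized reads at 20 h, against 208.6 and 166.2 at 16 h. Its groups did not overlap either, and it rose 3.40-fold (2.53 to 4.58; log2 1.77 ± 0.20; limma adjusted p = 0.00124). Per1, which glucocorticoids and other stimuli also induce, had 4121 and 4319 normalized reads at 20 h, against 2867 and 2830.4 at 16 h. Its replicates were close, the groups did not overlap, and it rose 1.48-fold (1.31 to 1.67; log2 0.57 ± 0.08; limma adjusted p = 0.0143). With 1 library left out Per1 missed the threshold each time: the limma adjusted p was 0.0851 without replicate 1 of 20 h, 0.33 without replicate 2 of 20 h, 0.117 without replicate 1 of 16 h and 0.225 without replicate 2 of 16 h.

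The Cryptochromes, which bind the Period proteins and repress CLOCK and BMAL1, both had 20 h values above 16 h values. Both 20 h libraries lay above both 16 h libraries in each, as in 14.9% of all tested genes. Cry2 had 592.5 and 649.3 normalized reads at 20 h, against 398.6 and 312.4 at 16 h. The 20 h libraries were higher without overlap, and Cry2 rose 1.76-fold (1.46 to 2.11; log2 0.81 ± 0.12; limma adjusted p = 0.0191). Without replicate 1 of 20 h the limma adjusted p of Cry2 was 0.0872, without replicate 2 of 20 h 0.478, and without replicate 2 of 16 h 0.453. Cry1 had 418.9 and 336.1 normalized reads at 20 h, against 262.6 and 193.5 at 16 h. These did not overlap either, but Cry1 did not pass (1.66-fold, 1.29 to 2.13; limma adjusted p = 0.368). It passed with the replicate block (adjusted p = 0.0274).

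The REV-ERB genes code for nuclear receptors that repress through ROR elements. Nr1d2 (REV-ERB beta) had 1225 and 1241 normalized reads at 20 h, against 562.5 and 532.2 at 16 h. Both times had close replicates, and Nr1d2 rose 2.25-fold (1.92 to 2.64; log2 1.17 ± 0.11; limma adjusted p = 0.000128). Nr1d1 (REV-ERB alpha) had 1642 and 1937 normalized reads at 20 h, against 1030.0 and 846.7 at 16 h. The groups did not overlap, with a 1.91-fold difference (1.51 to 2.41; log2 0.93 ± 0.16), and the limma adjusted p was 0.0586. The gene passed with the replicate block (adjusted p = 5.25e-05), with edgeR (0.0484) and with DESeq2 (6.92e-06). The difference was 0.67 log2 units within replicate 1 and 1.19 within replicate 2.

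Of the 3 PAR bZIP activators, Tef and Dbp rose. Tef had 2942 and 3300.0 normalized reads at 20 h, against 1261 and 1061 at 16 h. Every 20 h value was more than either 16 h value, and Tef rose 2.69-fold (2.28 to 3.19; log2 1.43 ± 0.11; limma adjusted p = 5.29e-05). Dbp, a strongly rhythmic output gene in many tissues, had 34.5 and 50.6 normalized reads at 20 h, against 3.73 and 3.16 at 16 h. It was near the lower end of detection at 16 h, with 7 reads in the 2 libraries together against 91 at 20 h. The ratio of depth-corrected reads was 12.3 (95% exact interval 5.71 to 31.3, counting error only), and the fitted log2 rise was 3.27 ± 0.46 (limma adjusted p = 0.0128). With edgeR the adjusted p of Dbp was 0.0987. With 1 library left out the limma adjusted p of Dbp was 0.0569 without replicate 1 of 20 h, 0.33 without replicate 2 of 20 h, 0.0985 without replicate 1 of 16 h and 0.197 without replicate 2 of 16 h. Hlf had 1020.5 and 1336 normalized reads at 20 h, against 825.1 and 1110 at 16 h. The groups overlapped, and the 95% interval of its log2 difference ran from -0.40 to 0.97 (limma adjusted p = 0.999).

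**Figure D2:**
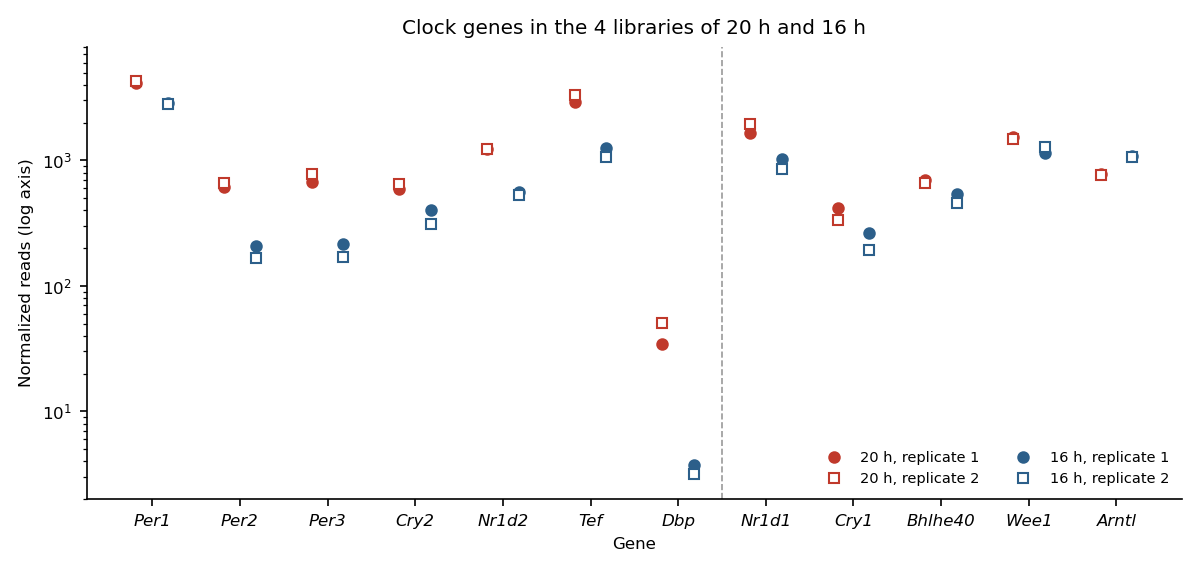
Normalized reads (log axis) of 12 clock genes in the 4 libraries. Red marks 20 h and blue 16 h, filled circles are replicate 1 and open squares replicate 2. The 7 genes left of the dashed line passed the threshold, and Arntl alone of the 12 has its 20 h libraries below those of 16 h.

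Several other genes driven through E-boxes had higher values at 20 h without passing. Both 20 h libraries lay above both 16 h libraries in 14.9% of all tested genes, so groups apart are common. Bhlhe40 (DEC1, an E-box repressor) had 697.9 and 665.5 normalized reads at 20 h, against 534.6 and 457.5 at 16 h. Wee1, a kinase that restrains entry into mitosis, had 1548 and 1475 at 20 h, against 1135 and 1279 at 16 h. Neither gene's groups overlapped, and the limma adjusted p was 0.362 for Bhlhe40 (1.38-fold, 1.18 to 1.61) and 0.368 for Wee1 (1.25-fold, 1.12 to 1.40). Both passed with the replicate block (adjusted p = 0.0159 for Bhlhe40 and 0.022 for Wee1). Gm129, also called Ciart or Chrono, codes for a repressor of CLOCK and BMAL1 and had 70.9 and 48.7 normalized reads at 20 h, against 36.3 and 26.3 at 16 h. Bhlhe41 (DEC2) had 24.5 and 20.1 at 20 h, against 10.2 and 13.7 at 16 h. Neither pair of groups overlapped, and both genes had a limma adjusted p of 0.999, with 95% intervals of the log2 difference of 0.30 to 1.51 for Gm129 and 0.12 to 1.58 for Bhlhe41. Usp2, a deubiquitinase, had an interval of -0.08 to 0.52, Ccrn4l (Nocturnin) one of -0.25 to 0.16 and Nampt, an enzyme of NAD synthesis, one of -0.16 to 0.17. Of the 15 genes listed as E-box or D-box driven, all tested, 6 rose, beside 0.0565% of all tested genes. With the replicate block 9 did, beside 0.234%. The list was chosen with earlier results of these data known. In 14 of the 15 the log2 difference was positive, as in 6094 of the 12393 tested genes. The list's median log2 difference was 0.85, beside -0.00 over all tested genes.

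Arntl and Clock, the positive arm of the loop, had lower values at 20 h without passing. Both 20 h libraries lay below both 16 h libraries in each, as in 14.4% of all tested genes. Arntl, which codes for BMAL1, had 776 and 767.7 normalized reads at 20 h, against 1089 and 1067 at 16 h. The 20 h libraries lay below those of 16 h with close replicates, at 0.72 times the 16 h level (0.63 to 0.82; log2 -0.48 ± 0.09). The limma adjusted p of Arntl was 0.093, against 0.00757 with the replicate block and 0.00206 with DESeq2. Clock, the partner of BMAL1, had 2393 and 2191 normalized reads at 20 h, against 2447 and 2620.0 at 16 h. Its groups did not overlap, the interval of its log2 difference was -0.28 to -0.01, and the limma adjusted p was 0.999. Npas2, a stand-in for CLOCK in some tissues, had at most 1.86 normalized reads in the 4 libraries and was not tested, and Arntl2 (BMAL2) did not pass (log2 interval -0.14 to 0.45).

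Of the 9 genes listed under REV-ERB and ROR elements, 6 were tested and 0 passed with limma. At an unadjusted p under 0.05, 2 of the 6 were lower and 1 higher, beside 1.36% and 1.65% of all tested genes. Of the 6, edgeR called 0 and DESeq2 2 (Arntl and Cry1), against 7 and 16 of all tested genes. The median log2 difference of the 6 was -0.14. With the replicate block Cry1 passed as higher and Arntl as lower, beside 0.234% and 0.105% of all tested genes. Nfil3, the D-box repressor, had a log2 interval of -0.37 to 0.11, and E2f8, an atypical E2F that represses transcription, one of -0.24 to 0.03. Of the receptors that activate through ROR elements, Rorb was at 0 in all 4 libraries and Rora had at most 2.79 normalized reads, and neither was tested.

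Genes for proteins that modify or degrade clock components did not pass. Of 20 further clock components, 19 were tested and Cry2 was the one that rose, beside 0.0565% of all tested genes. The list's median log2 difference was 0.01. The other 18 had log2 differences between -0.18 and 0.16 and a limma adjusted p of 0.999. Csnk1d and Csnk1e, the casein kinases that phosphorylate Period proteins, had 95% intervals of -0.11 to 0.12 and -0.17 to 0.09. Btrc, a ubiquitin ligase subunit that marks Period proteins for degradation, had an interval of -0.09 to 0.23.

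Across the whole course, each of the 7 genes had its lowest mean at 12 h or at 16 h, just before or at the start of the step. Per3 had its lowest mean at 12 h (146) and its highest at 24 h (1021), and its 20 h mean was 70.5% of the highest. For Tef these were 992 at 12 h and 4469 at 24 h, with 69.8% of the 24 h level at 20 h. Dbp had its lowest mean at 16 h (3.45) and reached 76.5 at 24 h, with 55.7% of that at 20 h. Per1, Per2, Nr1d1 and Nr1d2 had their highest means at 0 h (7580, 2252, 2056 and 1349). Their 20 h means were 55.7%, 28.3%, 87.1% and 91.4% of these. Nr1d1 had its highest mean after 0 h at 20 h (1790, against 1254 at 24 h), and Nr1d2 had a mean of 1233 at 20 h and of 1222 at 24 h. Cry1 and Cry2 had their lowest means at 16 h (228 and 355), and their 20 h means were 25.9% and 46.6% of the highest, which for both was at 4 h. Arntl had its lowest mean at 24 h (592), after 771.9 at 20 h and 1078 at 16 h.

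**Figure D3:**
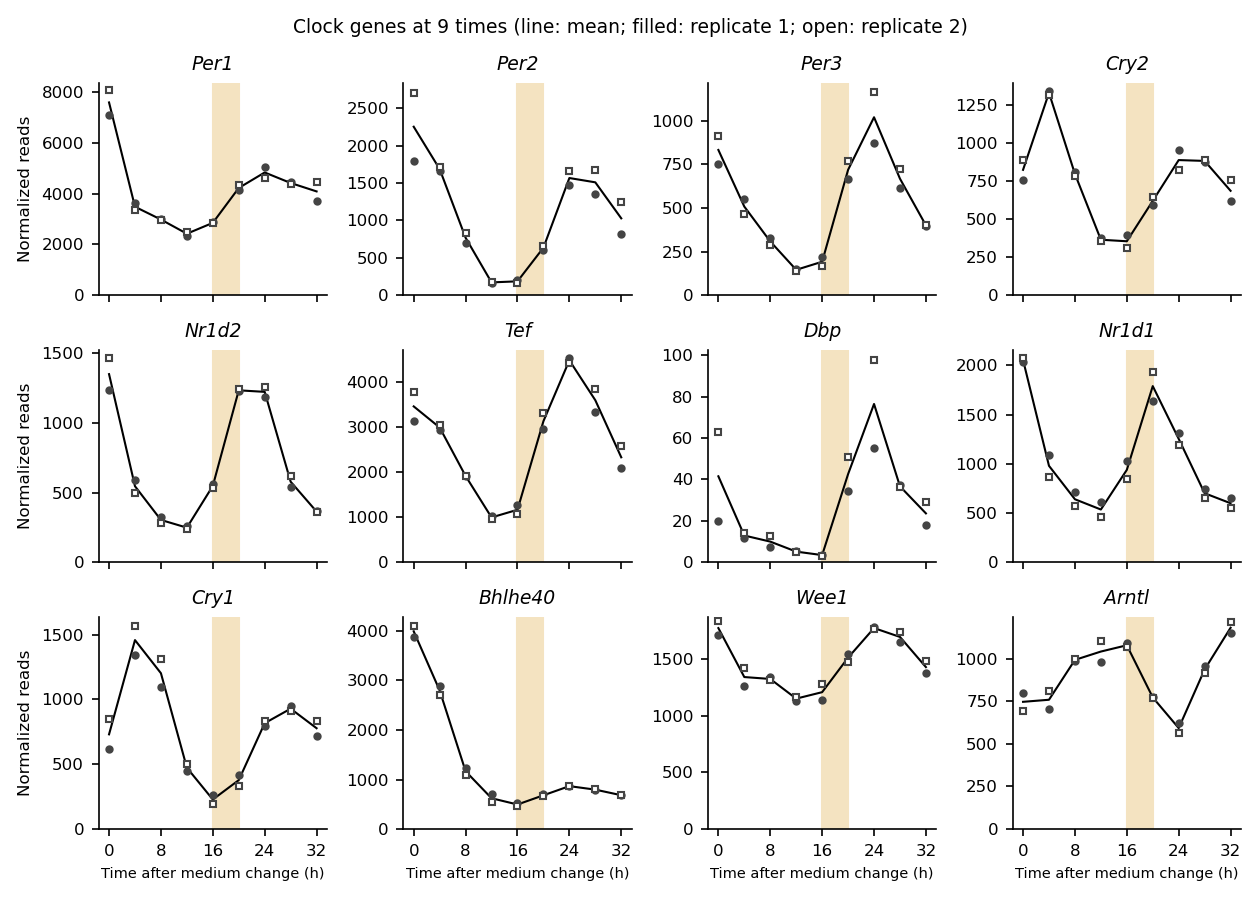
Normalized reads of 12 clock genes at the 9 times, hours after the medium change on the horizontal axis. Lines join means, filled circles are replicate 1, open squares replicate 2, and the shaded band marks 16 h to 20 h, where the lines of Per3, Tef and Dbp go up steeply and that of Arntl goes down.

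The times on either side of the step, 24 h and 12 h, share no library with it. The spread of each gene is estimated from all 18 libraries for both comparisons, so their tests are not fully separate. All 7 genes were higher at 24 h than at 12 h and past the threshold there, where 797 genes passed (6.43%), 412 higher (3.32%) and 385 lower (3.11%). The log2 difference of 24 h minus 12 h was 2.78 in Per3, 3.17 in Per2, 0.99 in Per1, 1.28 in Cry2, 2.30 in Nr1d2, 2.17 in Tef and 3.60 in Dbp. The count of 797 was 467 without replicate 1 of 24 h, 242 without replicate 2 of 24 h, 214 without replicate 1 of 12 h, 398 without replicate 2 of 12 h, and 2743 with the replicate block. Nr1d1 also passed there (limma adjusted p = 0.000608), as did Arntl in the other direction (0.000248).

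The step 12 h later, 32 h against 28 h, gave a negative log2 difference in each of the 7 genes. Per3 had a log2 difference of -0.73, Nr1d2 of -0.66, Dbp of -0.65, Tef of -0.63, Per2 of -0.58, Cry2 of -0.37 and Per1 of -0.12, and none passed. No gene at all passed with limma in that step, with 118 at an unadjusted p under 0.05, 0 with edgeR, 3 with DESeq2 (Nr1d2, Per3 and Tef) and 2 with the replicate block (Nr1d2 and Tef; 0.0161%), all lower at 32 h. The test of the difference between the steps passed for 8 genes (0.0646%), 7 higher in the step of 20 h against 16 h (0.0565%) and 1 lower (0.00807%). They were Tef, Nr1d2, Per3, Per2, Cry2, Dbp, Ier5l and, as the lower one, Arntl. This test uses the 20 h and 16 h libraries again, so it is not separate from the first step. Per1 missed the threshold (limma adjusted p = 0.0514) and passed with the replicate block (0.00163), where 16 genes passed. Nr1d1 (limma adjusted p = 0.139), Wee1 (0.0925) and Bhlhe40 (0.34) missed it too and passed with the block (0.000531, 0.00311 and 0.0132). Dbp was lost with edgeR (adjusted p = 0.158), and Ier5l with 7 of the 8 libraries left out in turn, all but replicate 1 of 20 h (limma adjusted p up to 0.353). The count of 8 was 4 without replicate 2 of 20 h, 5 without replicate 1 of 16 h, 4 without replicate 2 of 16 h, 4 without replicate 1 of 32 h, 4 without replicate 1 of 28 h and 4 without replicate 2 of 28 h.

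**Figure D4:**
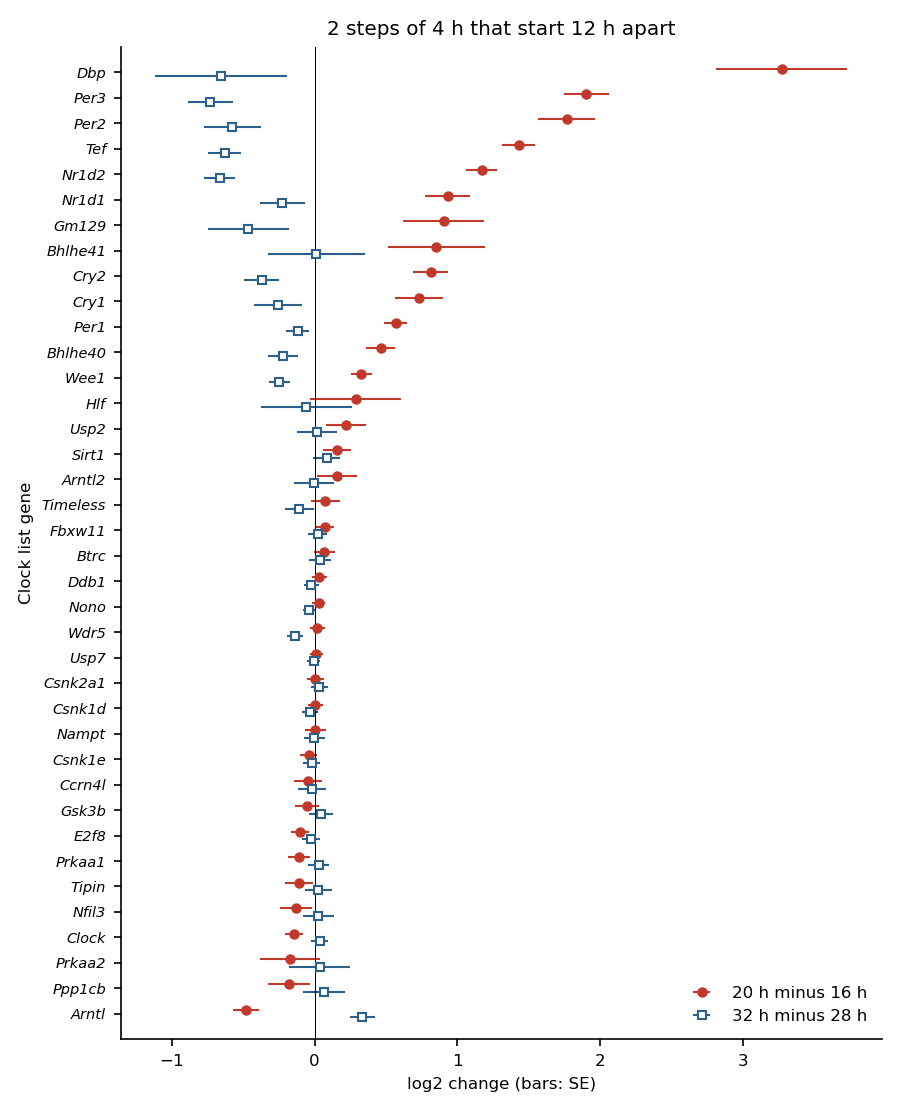
Log2 difference with its SE for tested clock genes, 20 h minus 16 h (red circles) and 32 h minus 28 h (open blue squares). The genes that rose in the first step lie left of 0 in the second, and Arntl lies left of 0 in the first step and right of it in the second.

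Outside the clock lists no gene passed with limma at 20 h against 16 h, and 30 passed with the replicate block. Ier5l, an immediate early response family member named here after its values were seen, had 514.3 and 614 normalized reads at 20 h, against 395.8 and 360.8 at 16 h. Its groups did not overlap, and its limma adjusted p was 0.0603 (log2 0.57 ± 0.10), against 0.00568 with the replicate block. Among the genes lower with the block were Sema7a, Serpinb2 (a plasminogen activator inhibitor) and Ptgs2, also named after their values were seen. Sema7a, a membrane-anchored semaphorin, had 943.3 and 706.6 normalized reads at 20 h, against 1788 and 1144 at 16 h. Serpinb2 had 171.8 and 103.1 at 20 h, against 371.6 and 212.5 at 16 h. Ptgs2, which codes for the cyclooxygenase COX-2, had 13885 and 10188 at 20 h, against 17159 and 13100.1 at 16 h. Replicate 2 was the lower of each pair in all 3 genes, and for Ptgs2 alone of the 3 the groups overlapped. Of all tested genes, 14.4% had both 20 h libraries below both 16 h libraries. Within replicates 1 and 2 the log2 difference was -0.92 and -0.69 in Sema7a, -1.11 and -1.04 in Serpinb2, and -0.31 and -0.36 in Ptgs2, and the limma adjusted p without the block was 0.999 in each.

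Of 20 pathway lists, 1 held a gene past the threshold, the glucocorticoid receptor targets, and that gene was Per1. Of that list's 20 tested genes 1 passed, beside 0.0565% of all tested genes. With the replicate block 2 passed as higher, beside 0.234%. The mitosis list had the highest pathway median, a log2 difference of 0.20 beside -0.00 over all tested genes. None of its 26 genes passed with limma or edgeR, 3 passed with DESeq2 and 6 with the replicate block (Cdc20, Ccnb1, Cenpa, Kif20a, Ube2c and Ccnb2). Of all 12393 tested genes, 16 passed with DESeq2, and 0.234% were higher with the block. All 26 log2 differences were positive, between 0.05 and 0.32, as were 6094 of those of the 12393 tested genes. Of the 26, 25 had both 20 h libraries above both 16 h libraries (14.9% of all tested genes). An unadjusted p under 0.05 was found in 19 (1.65% of all tested genes, higher). Cenpa, the centromeric histone and the member with the lowest p, had 2299 and 2341 normalized reads at 20 h, against 1966 and 1857 at 16 h. Its groups did not overlap (log2 0.28 ± 0.06; limma adjusted p = 0.152). Between 24 h and 12 h 18 of the 26 were higher and past the threshold, beside 3.32% of all tested genes, and the list's median log2 difference was 0.32, while at 32 h against 28 h it was -0.04. Cdc25b, a phosphatase that activates the mitotic kinase CDK1, and Nek2, a kinase of the centrosome, are outside the list and passed with the block. Named here after their values were seen, Cdc25b had 2589.8 and 2632 normalized reads at 20 h, against 2189 and 2176 at 16 h, and Nek2 had 3167 and 2921 at 20 h, against 2667 and 2527 at 16 h. Neither overlapped. In RNA from whole cultures, more cells in mitosis and more of these transcripts per cell cannot be told apart. For the other genes here, a change in the mix of cells and a change per cell cannot be told apart either.

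Of the genes for chaperones of the endoplasmic reticulum, 17 of 18 had a negative log2 difference, as had 6299 of the 12393 tested genes. The list's median was -0.13 and its range -0.32 to 0.09. Both 20 h libraries were below both 16 h libraries in 12 of the 18 (14.4% of all tested genes), and 6 had an unadjusted p under 0.05 (1.36%). None of the 18 passed with limma, edgeR, DESeq2 or the replicate block. Between 24 h and 12 h 13 of the 18 were lower and past the threshold, beside 3.11% of all tested genes. All 24 cytosolic ribosomal protein genes had a positive log2 difference, between 0.05 and 0.16, as had 6094 of the 12393 tested genes. In 15 of the 24 both 20 h libraries were above both 16 h libraries (14.9% of all tested genes). None of the 24 passed (1 with an unadjusted p under 0.05, none with edgeR, DESeq2 or the block). The DNA replication genes of G1 and S phase had a median of -0.04, with 0 of 26 passing, 0 with an unadjusted p under 0.05 and 0 with edgeR or DESeq2. The medians of all 20 pathway lists lay between -0.13 and 0.20.

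**Figure D5:**
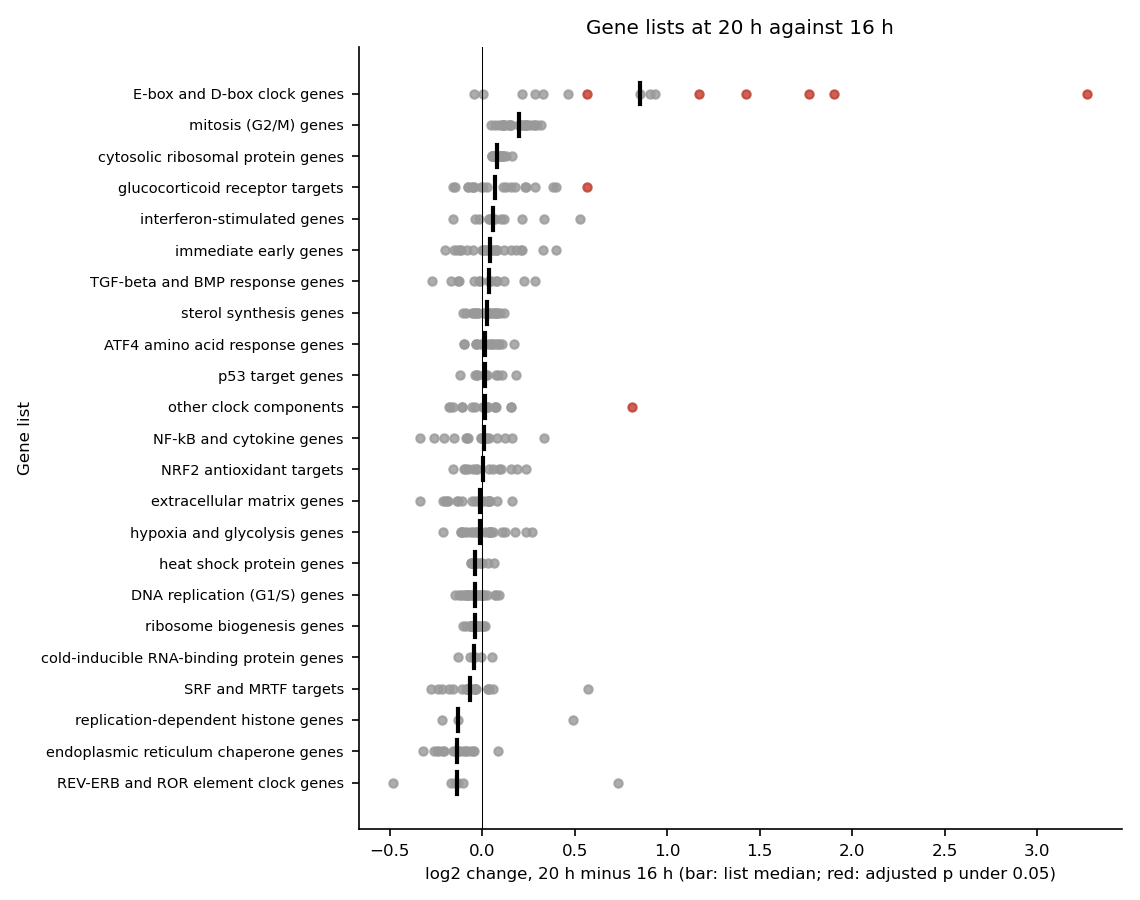
Log2 difference of 20 h minus 16 h for the tested members of the 3 clock lists and 20 pathway lists, 1 row a list, ordered by median (black bar). Red points passed the threshold, and most lie in the row of E-box and D-box clock genes, whose median is 0.85.

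The 4 libraries were alike in depth, with 29.4 to 33.5 M reads in genes, of which 5.82% to 6.51% came from the 10 most abundant genes. The fibroblast label was checked on 12 fibroblast markers, all tested, whose summed level was 834832 and 938420 normalized reads at 20 h, against 863837 and 904342 at 16 h. The 6 lists of other cell types summed to at most 2275 in any of the 4 libraries. The skeletal muscle list summed to 1594 and 1842 at 20 h, against 2103 and 2275 at 16 h, with Myod1 and Myf5 at 0. Most of that sum was Acta1, with 1438 and 1700 at 20 h, against 1978 and 2159 at 16 h. The epithelial list summed to 227 to 246, with Epcam, Krt19 and Cldn4 at 0, and the leukocyte list to 302 to 391, with Cd3e, Emr1 and Tyrobp at 0. Their highest members were Krt8 (154 to 170) and Cd68 (182 to 251). The endothelial list summed to 359 to 428, with Kdr at 0, the adipocyte list to 592 to 732, with Cfd at 0, and the neural list to 575 to 712, with Rbfox3 at 0. The highest members of these lists were Flt1 (247 to 289), Lpl (544 to 693) and Tubb3 (366 to 434). No marker passed the threshold, and their part in the results was not tested.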

How the data were processed

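RNA from NIH3T3 cells was sequenced at 9 times, 2 libraries each. The authors deposited 1 signal value per gene and library, which are read counts scaled by a size factor of the library and rounded to hundredths. The submitters' processing notes name TopHat, HTSeq, DESeq and the mouse build mm9. Their versions, roles and annotation are not given in the sources used here. Values divided by the library's step gave whole reads within 0.02 for 100% of the values.

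With a minimum mean of 10, genes entered a limma fit (version 3.58.1, R 4.3.3) on log2(value + 1), with a variance trend, all 18 libraries sharing 1 estimate of the spread, 2-sided, and a Benjamini-Hochberg threshold of 0.05 over all tested genes. The limma fit without a block and the edgeR fit of 20 h against 16 h were tested on simulated counts. Those simulated libraries were independent, without pairing by replicate number. The block fit, DESeq2 and the other comparisons were not tested that way. The members of the comparison and the gene lists were chosen with earlier results of these data known. Named genes were the clock list members, up to 12 genes each way past the threshold (mean of at least 50, groups apart), up to 4 passing members of each other list and up to 8 that also passed in the difference between the steps. Lists got no set test, and some of their genes are counted but not reported here by name. Count tests were run on the recovered reads with edgeR 4.0.16, which called 7 genes, and DESeq2 1.42.0, which called 16.

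The alternatives were other pseudocounts, filters, scalings, variance estimates, sets of libraries, a minimum fold of 1.5, a replicate block and leaving out each library. Where a time kept 1 library, its spread was taken from the other times. Same-numbered libraries deviated together in 36 of 36 pairs of times (correlation 0.230 to 0.502, 0.345 between 20 h and 16 h), so the numbers pair the libraries, and the labels state no source for it. Replicates of 20 h and of 16 h differed beyond sampling noise (chi-square 12.6 and 10.9 times its degrees of freedom), so no library was a copy. Libraries of 29.4 to 33.5 M reads make counting error small except for low genes such as Dbp. Promoter sequences are RefSeq's for GRCm38.p6, and no other coordinates are given because the builds differ. Figures were drawn with matplotlib 3.10.9 in Python 3.11.15.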

Additional observations from a re-analysis of the deposited data

Results flagged for a closer look

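The step of 20 h against 16 h and the step 12 h later, 32 h against 28 h, were set against each other. In a test of their difference (limma, adjusted over all tested genes) 7 clock genes passed. The test uses the 20 h and 16 h libraries again, so it is not separate from the first step. Each value is the log2 difference of the first step minus that of the second. It was 2.06 ± 0.16 (SE) in Tef (limma adjusted p = 4.36e-05), with 1.43 in the first step and -0.63 in the second. In Per3 it was 2.63 ± 0.22 (limma adjusted p = 4.67e-05) and in Per2 2.34 ± 0.28 (0.00268). Nr1d2 had 1.83 ± 0.15 (limma adjusted p = 4.67e-05) and Cry2 had 1.18 ± 0.17 (0.0195). Dbp had 3.93 ± 0.65 (limma adjusted p = 0.0472), and its adjusted p was 0.158 with edgeR. Arntl had -0.81 ± 0.12 (limma adjusted p = 0.0262), with -0.48 in the first step and 0.33 in the second, neither of them past the threshold alone. In the second step alone, none of the 7 genes passed with limma. Tef, Per3, Per2 and Nr1d2 passed in all 23 alternatives of this test. Without each of the 8 libraries in turn, Dbp missed the threshold 8 times (limma adjusted p = 0.0961 to 0.376) and Arntl 8 times (0.0998 to 0.228). Cry2 missed it without replicate 2 of 20 h (limma adjusted p = 0.189), replicate 2 of 16 h (0.0939), replicate 1 of 32 h (0.136), replicate 1 of 28 h (0.0986) and replicate 2 of 28 h (0.148).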

How the results depend on the processing

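Per2, Per3, Nr1d2 and Tef passed at 20 h against 16 h in all 18 alternatives that gave them an adjusted p. Over the named genes, 716 values under an alternative kept their direction and side of the threshold, 16 lost the threshold, 11 gained it and 14 turned sign. All 14 were differences of genes that had not passed, with 1 library left out: the log2 difference ran from -0.169 to 0.0764 in Ccrn4l, -0.0748 to 0.0836 in Nampt, -0.0148 to 0.0259 in Csnk1d, -0.0833 to 0.00144 in Csnk1e, -0.0324 to 0.0437 in Csnk2a1, -0.140 to 0.0292 in Gsk3b, -0.00364 to 0.0592 in Nono, -0.00834 to 0.0483 in Wdr5, -0.450 to 0.104 in Prkaa2 and -0.0238 to 0.0497 in Usp7.
The count of 7 was 4 to 7 with 1 library left out, 16 with DESeq2 and 42 with the replicate block. At 24 h against 12 h the 797 genes became 214 to 467 with 1 library left out, 264 from those libraries alone, 185 at 1.5-fold or more and 2743 with the block. At 32 h against 28 h there were 3 with DESeq2, 2 with the block and 0 with 1 library left out. The difference of the steps gave 4 to 7 with 1 library left out, 5 without a variance trend, 15 with DESeq2 and 16 with the block. Per1 and Cry2 missed the threshold without a trend (limma adjusted p = 0.0678 for both), Cry2 also from its 4 libraries alone (0.151), and Per1 lies under 1.5-fold. Beside the calls given above, the block changed no other call of a clock gene at 20 h against 16 h or in the difference of the steps. In that difference Arntl, Cry2 and Dbp also missed the threshold without a trend, Cry2 from those libraries alone, and Dbp with a pseudocount of 5, no filter or quantile normalization. Fewer samples leave fewer degrees of freedom, and the cause of the other changes was not tested. With 2 libraries a time, genes that miss the threshold may still differ, and Dbp is limited by its 7 reads at 16 h.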
